A study of Mus musculus with 8 samples.

Results

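The chromatin of the genes for 3 GATA transcription factors, Gata1, Gata2 and Gata3, and for their cofactor Zfpm1 was examined in mouse bone marrow progenitors with and without Xist. The members were all ATAC-seq peaks that overlapped the body of one of these 4 genes or the 50 kb on either side of it. There were 359 such peaks among 501728 in all, and they formed 83 of the 123260 regions obtained when overlapping peaks of all libraries were merged. The Zfpm1 locus held 30 of these regions, the Gata2 locus 22, the Gata3 locus 17 and the Gata1 locus 14.

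ATAC-seq marks open chromatin by inserting sequencing adapters with the Tn5 transposase. Sorted were LSK+ cells, which carry Sca-1 and c-Kit but no lineage markers and include the blood stem cells, and LSK- cells, which carry c-Kit without Sca-1 or lineage markers and are progenitors of the myeloid branches. They came from the bone marrow of female mice of 4.5 months on a mixed 129Sv4/Jae x B6 background. XistΔ/Δ mice lacked Xist, the RNA that coats and silences the inactive X chromosome, on both X chromosomes. The deletion was made in blood cells by Vav-iCre, a Vav1-cre transgene inserted in Commd10, acting on the Xist2lox allele. Whether the wild-type (WT) mice carried the transgene or the unrecombined allele is not given in the sources used here. Each of the 4 groups had 2 libraries, of about 10000 cells each, and whether a library pooled several mice was not stated.

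GATA factors bind the sequence for which they are named through zinc fingers. GATA2 maintains stem and early progenitor cells, GATA1 replaces it on many elements as cells become erythroid, megakaryocytic, mast or eosinophil cells, and GATA3 is best known for T cells and is also active in stem cells. Zfpm1 encodes FOG-1 (Friend of GATA), which binds GATA1 and GATA2 and without which erythroid and megakaryocytic cells do not mature. The Gata1 and Gata2 genes are themselves controlled by distant elements that GATA factors bind, and these elements are named by their distance in kb from the transcription start site (TSS).

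The strength of a peak was expressed as its percentile within its own list, ranked by -log10 p, so that 100 is the strongest peak of a library and 0 means that no peak was listed. The lists held 29829 to 91590 peaks, and within each cell type and replicate number the XistΔ/Δ list was longer than the WT list. The genome-wide background pileup, a proxy of sequencing depth, ran from 0.482 fragments in LSK+ WT replicate 2 to 3.866 in LSK- XistΔ/Δ replicate 1. A longer list raises the percentile of a given peak, and the median XistΔ/Δ minus WT difference over all 60447 regions present in 4 or more of the 8 libraries was 12.7 percentile points. Genotype differences are therefore read against that shift. A peak at the Xist start site was listed in 3 of the 4 WT libraries (the exception was LSK+ WT replicate 2, the shortest list) and in 0 of the 4 XistΔ/Δ libraries. Promoters of 4 of 5 genes of lineage-positive cells (Cd3e, Cd4, Cd8a and Ly6g) had no peak in any library, whereas that of Itgam, which encodes CD11b, had one in 5. Those of Kit and Cd34 had a peak in all 8. The promoter of Ly6a, which encodes Sca-1, had none in any library, so that the marker separating the sorts was not seen at its own start site.

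The sequences at the summits of 8 regions are given here, to show the letters behind the motif counts. They are 6 of the 11 regions whose libraries did not overlap between the cell types, together with the known elements of Gata2 at -3.9 and +9.5 kb, where the libraries overlapped. The 5 not shown are the Gata1 promoter, Gata1 +40.1, Gata2 -46.1, Gata3 +17.7 and Zfpm1 +47.7 kb. Each is 151 bases of mm10 centred on the median summit and written 5′ to 3′ along the strand of the gene, which is the minus strand for Gata1 and the plus strand for Gata2 and Zfpm1. None overlapped an annotated exon. Capitals mark GATA hexamers on either strand, which are AGATAA and the variants that replace its outer letters. These variants were AGATAG for the last letter, TGATAA for the leading letter, or TGATAG when both were replaced. The Gata1 windows lay at chrX:7971395-7971545 and chrX:7993410-7993560. Those of Gata2 lay at chr6:88189712-88189862, chr6:88203147-88203297, chr6:88252171-88252321 and chr6:88184773-88184923, and those of Zfpm1 at chr8:122321697-122321847 and chr8:122331279-122331429.
Gata1 -3.5 kb: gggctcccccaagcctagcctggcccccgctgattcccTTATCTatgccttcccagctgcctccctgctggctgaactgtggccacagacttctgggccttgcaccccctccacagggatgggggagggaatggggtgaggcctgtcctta
Gata1 -25 kb: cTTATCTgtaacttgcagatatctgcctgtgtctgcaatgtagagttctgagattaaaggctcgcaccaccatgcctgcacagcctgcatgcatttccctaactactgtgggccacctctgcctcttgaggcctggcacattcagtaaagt
Gata2 -3.9 kb: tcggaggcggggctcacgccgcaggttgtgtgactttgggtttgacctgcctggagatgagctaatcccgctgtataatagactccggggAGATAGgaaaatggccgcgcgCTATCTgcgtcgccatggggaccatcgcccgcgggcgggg
Gata2 +9.5 kb: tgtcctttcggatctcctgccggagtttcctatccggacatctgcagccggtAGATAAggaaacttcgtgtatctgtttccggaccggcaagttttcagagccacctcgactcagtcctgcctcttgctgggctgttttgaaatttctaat
Gata2 +58.4 kb: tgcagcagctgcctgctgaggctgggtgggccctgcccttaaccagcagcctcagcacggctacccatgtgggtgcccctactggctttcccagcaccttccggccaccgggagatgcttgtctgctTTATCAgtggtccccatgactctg
Gata2 -9.0 kb: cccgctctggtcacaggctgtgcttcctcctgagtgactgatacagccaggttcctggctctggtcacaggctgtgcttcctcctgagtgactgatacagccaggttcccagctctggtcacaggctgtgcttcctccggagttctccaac
Zfpm1 +39.6 kb: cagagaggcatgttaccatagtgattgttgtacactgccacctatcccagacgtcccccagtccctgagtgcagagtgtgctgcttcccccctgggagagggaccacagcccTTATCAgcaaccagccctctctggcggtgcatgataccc
Zfpm1 +49.2 kb: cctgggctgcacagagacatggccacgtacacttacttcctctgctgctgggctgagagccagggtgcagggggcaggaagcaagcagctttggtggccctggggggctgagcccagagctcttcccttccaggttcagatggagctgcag

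The window at Gata2 +9.5 kb held the E-box CATCTG with 8 bases between it and AGATAA, the known composite of this element, and the window at Gata2 -3.9 kb held 2 GATA matches in opposite orientations. The 6 windows shown here of the Gata1 and Gata2 elements and of the regions at Gata2 +58.4 and Zfpm1 +39.6 kb each held at least 1 GATA match. They include Gata2 +9.5 kb, which was the higher on average in LSK+ cells. The windows at Gata2 -9.0 and Zfpm1 +49.2 kb, both higher in LSK+ cells, held none, and they had 3 and 2 matches to AGGAAG or CGGAAG, the sequences bound by ETS factors. Those at Gata2 -9.0 kb lie in copies of a repeated stretch. The window at Gata2 +58.4 kb, higher in LSK- cells, also held 1 ETS match. Of the regions higher in LSK+ cells that are not shown, Gata2 -46.1 kb had 3 ETS matches, and Gata1 +40.1 and Gata3 +17.7 kb had neither a GATA nor an ETS match. Of those higher in LSK- cells that are not shown, the Gata1 promoter had neither, and Zfpm1 +47.7 kb had 1 GATA match. The window of the Gata2 -77 kb element, which lies outside the 50 kb, is not shown either. It was higher in LSK- cells and held 0 GATA matches and 1 ETS match.

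Gata1, the erythroid and megakaryocytic factor, lies on the X chromosome (chrX:7959260-7978071, minus strand, ENSMUSG00000031162.14). Its promoter was open only in the lists of LSK- cells. No peak was listed within 500 bp of the TSS at position 7967910 in any of the 4 LSK+ libraries. The LSK- peak stood at percentile 29.6 and 28.7 with Xist (WT) and at 72.7 and 41.2 without it (XistΔ/Δ), with 20 to 129 fragments at the summit. The cell types did not overlap, and the mean difference (LSK- minus LSK+) was 43.0 points. By the two-sided exact permutation test of cell type labels within genotype this gave p = 0.0556, the smallest that 36 assignments allow, and 0.444 after adjustment over 8 promoter tests. In lists cut to an equal length of 29829 peaks the difference was 6.60 points (exact permutation p = 0.5), so the promoter peak was not among the strongest 29829 of every LSK- list. In bulk libraries, fewer cells of a type and less open chromatin per cell cannot be told apart.

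The upstream elements of Gata1 showed the same order more strongly. The region at -3.5 kb (chrX:7971060-7971786, summit -3.56 kb), a hypersensitive site known to drive Gata1 in erythroid cells, stood at 8.88 and 0 in the LSK+ libraries of WT mice and at 47.0 and 31.4 in those of XistΔ/Δ mice. It stood at 85.2 and 59.7 for LSK- WT and at 89.1 and 73.9 for LSK- XistΔ/Δ cells. All 4 LSK- libraries thus lay above all 4 LSK+ libraries, by 55.2 points on average (exact permutation p = 0.0556, adjusted 0.296 over 16 element tests), and by 56.5 points in lists of equal length. The region at -25 kb (chrX:7992834-7993875, summit -25.6 kb), the other known distal site of Gata1, was listed in no LSK+ library. Its percentiles in LSK- cells were 72.0 and 42.7 for WT and 88.1 and 70.1 for XistΔ/Δ mice. The difference of 68.2 points gave the same exact permutation p and adjusted p as at -3.5 kb, and it was 40.4 points in lists of equal length.

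The intronic site at +3.5 kb (chrX:7963994-7964444) was weak and did not separate the cell types. Its percentiles were 9.89, 0, 7.67 and 45.5 in LSK+ WT and XistΔ/Δ libraries and 22.8, 0, 16.8 and 39.1 in the LSK- libraries in the same order. The difference was 3.91 points (exact permutation p = 0.778) against a pooled SD between replicates of 17.8 points. Elsewhere in the window, the region at the promoter of the neighbouring Hdac6 (+19.9 kb, chrX:7947566-7948497) ranked between 91.5 and 96.4 in all 8 libraries. In lists of equal length it stood at 90 to 91.62 in LSK+ and at 85.35 to 89.35 in LSK- libraries, without overlap. A region within Eras (+40.1 kb) was listed in the 4 LSK+ libraries only, at percentiles of 1.92 to 3.45 that are close to the limit of the lists.

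**Figure D1:**
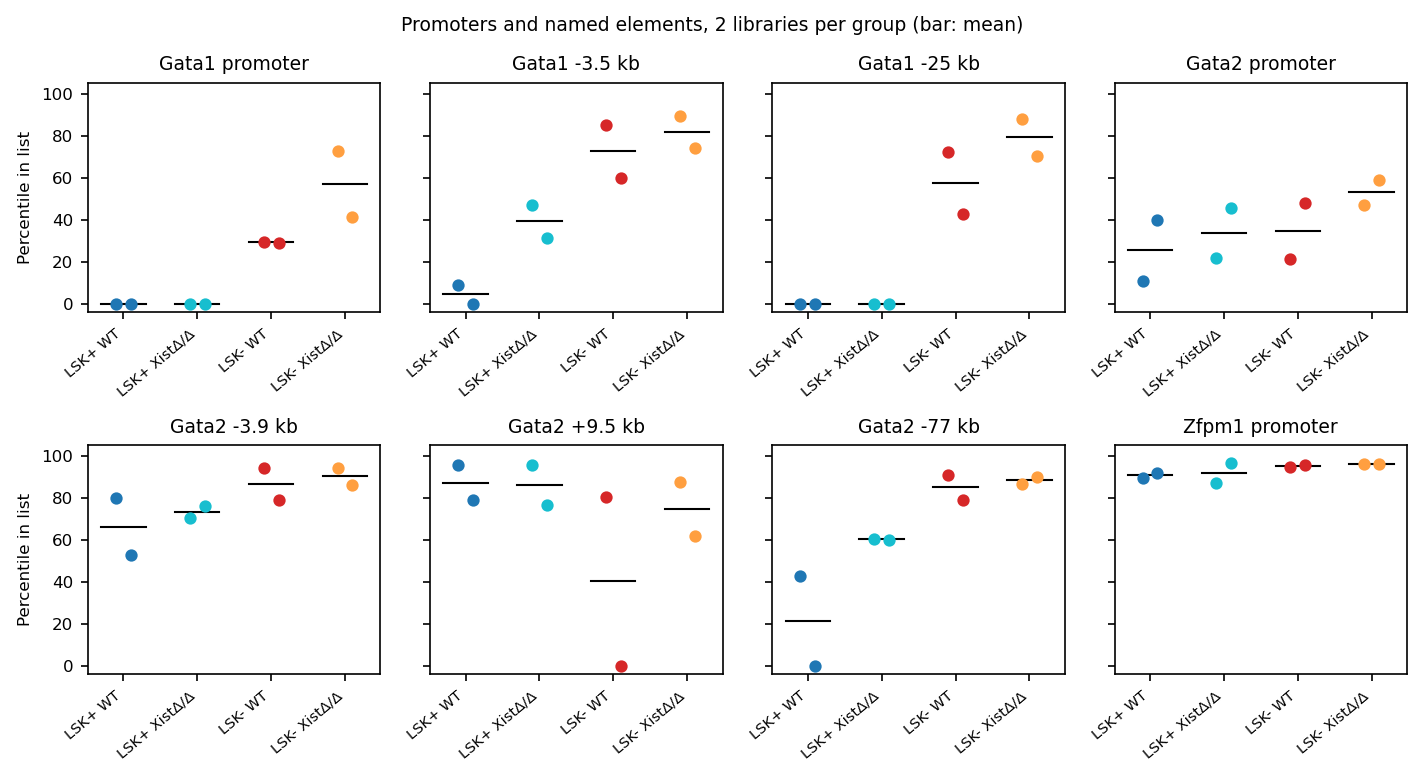
Percentile of the strongest peak (y axis, 0 where none is listed) at 3 promoters and 5 named elements, with 1 point per library (replicate 1 left, replicate 2 right) and a bar for the mean of each group of 2. The Gata1 promoter and its -25 kb element are at 0 in all 4 LSK+ libraries, and the Zfpm1 promoter lies between 87.1 and 96.3 throughout.

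Gata2, the factor of stem and early progenitor cells, lies on chromosome 6 (chr6:88193891-88207032, plus strand, ENSMUSG00000015053.14) and has 2 TSSs in the basic annotation, an upstream one at 88193891 and a downstream one at 88198334. Its promoters were weak in the lists of both cell types. At the upstream TSS the percentiles were 0 and 32.6 for LSK+ WT, 21.6 and 34.0 for LSK+ XistΔ/Δ, 0 and 36.7 for LSK- WT and 3.59 and 37.3 for LSK- XistΔ/Δ libraries. At the downstream TSS they were 10.6 and 40.04, 9.33 and 45.3, 21.3 and 47.9, and 47.1 and 59.0 in the same order. In every group replicate 2 ranked above replicate 1 at both sites, and the replicate numbers coincide with run codes in the file names. The LSK- minus LSK+ difference was -2.68 points at the upstream and 17.5 points at the downstream TSS. Taking the stronger of both sites, LSK- exceeded LSK+ cells by 14.4 points (exact permutation p = 0.222) with a pooled SD of 16.9 points. Between libraries of the same genotype and replicate number this stronger value was higher in LSK- cells in all 4 pairs, by 7.88 to 25.4 points. With the replicate block the exact permutation p was 0.125, the smallest that the block allows.

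The distal elements of Gata2 went in both directions. The region at -3.9 kb (chr6:88189523-88190195, summit -4.10 kb, within the noncoding gene Gm38708) ranked at 80.0 and 52.7 for LSK+ WT, 70.5 and 76.0 for LSK+ XistΔ/Δ, 94.0 and 79.1 for LSK- WT and 94.0 and 86.3 for LSK- XistΔ/Δ libraries. The mean was 18.6 points higher in LSK- cells (exact permutation p = 0.111), and the cell types overlapped only between LSK- WT replicate 2 and LSK+ WT replicate 1. In lists of equal length the 4 LSK- libraries, at 71.3 to 85.8, lay above the 4 LSK+ libraries, at 18.4 to 57.5, and the difference was 33.6 points (exact permutation p = 0.0556). No peak was listed in any library at the -2.8 and -1.8 kb elements.

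The intronic +9.5 kb element (chr6:88202992-88203621, summit +9.33 kb), which is needed for Gata2 expression when stem cells arise, was the highest ranked region of the Gata2 locus in 3 of the 4 LSK+ libraries. Its percentiles in LSK+ cells were 95.4 and 78.9 for WT and 95.5 and 76.7 for XistΔ/Δ mice. In LSK- cells they were 80.5 and 0 for WT and 87.6 and 61.7 for XistΔ/Δ mice. The LSK- minus LSK+ difference was -29.2 points (exact permutation p = 0.222), a value that rested largely on the absent peak of LSK- WT replicate 2 and was -9.05 points without that library. Within each replicate number the order was the same, at -11.4 points for replicate 1 and -47.0 points for replicate 2.

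The -77 kb element of Gata2, a distal enhancer of myeloid progenitors, lies outside the 50 kb window and is given for comparison only. It ranked at 42.7 and 0 for LSK+ WT, 60.2 and 60.1 for LSK+ XistΔ/Δ, 90.8 and 79.0 for LSK- WT and 86.7 and 90.03 for LSK- XistΔ/Δ libraries. All LSK- libraries lay above all LSK+ libraries, by 45.9 points on average (exact permutation p = 0.0556, adjusted 0.296). The LSK- mean was thus the higher at -77 and -3.9 kb and the lower at +9.5 kb.

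Further Gata2 regions also separated the cell types. The region at +58.4 kb (chr6:88251906-88252739, within Dnajb8) was listed in no LSK+ library and ranked at 64.9, 54.3, 80.6 and 75.9 in the LSK- libraries, with 34 to 158 fragments at the summit. The region at -9.0 kb (chr6:88184353-88184949) was the reverse, at 39.2, 38.1, 38.4 and 26.9 in the LSK+ libraries and absent from the 4 LSK- lists. A region at -46.1 kb ranked at 28.4 to 49.0 in LSK+ and at 0 to 21.6 in LSK- libraries. Both of the latter were held by fewer than 4 lists of equal length and were not called there, whereas +58.4 kb was.

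**Figure D2:**
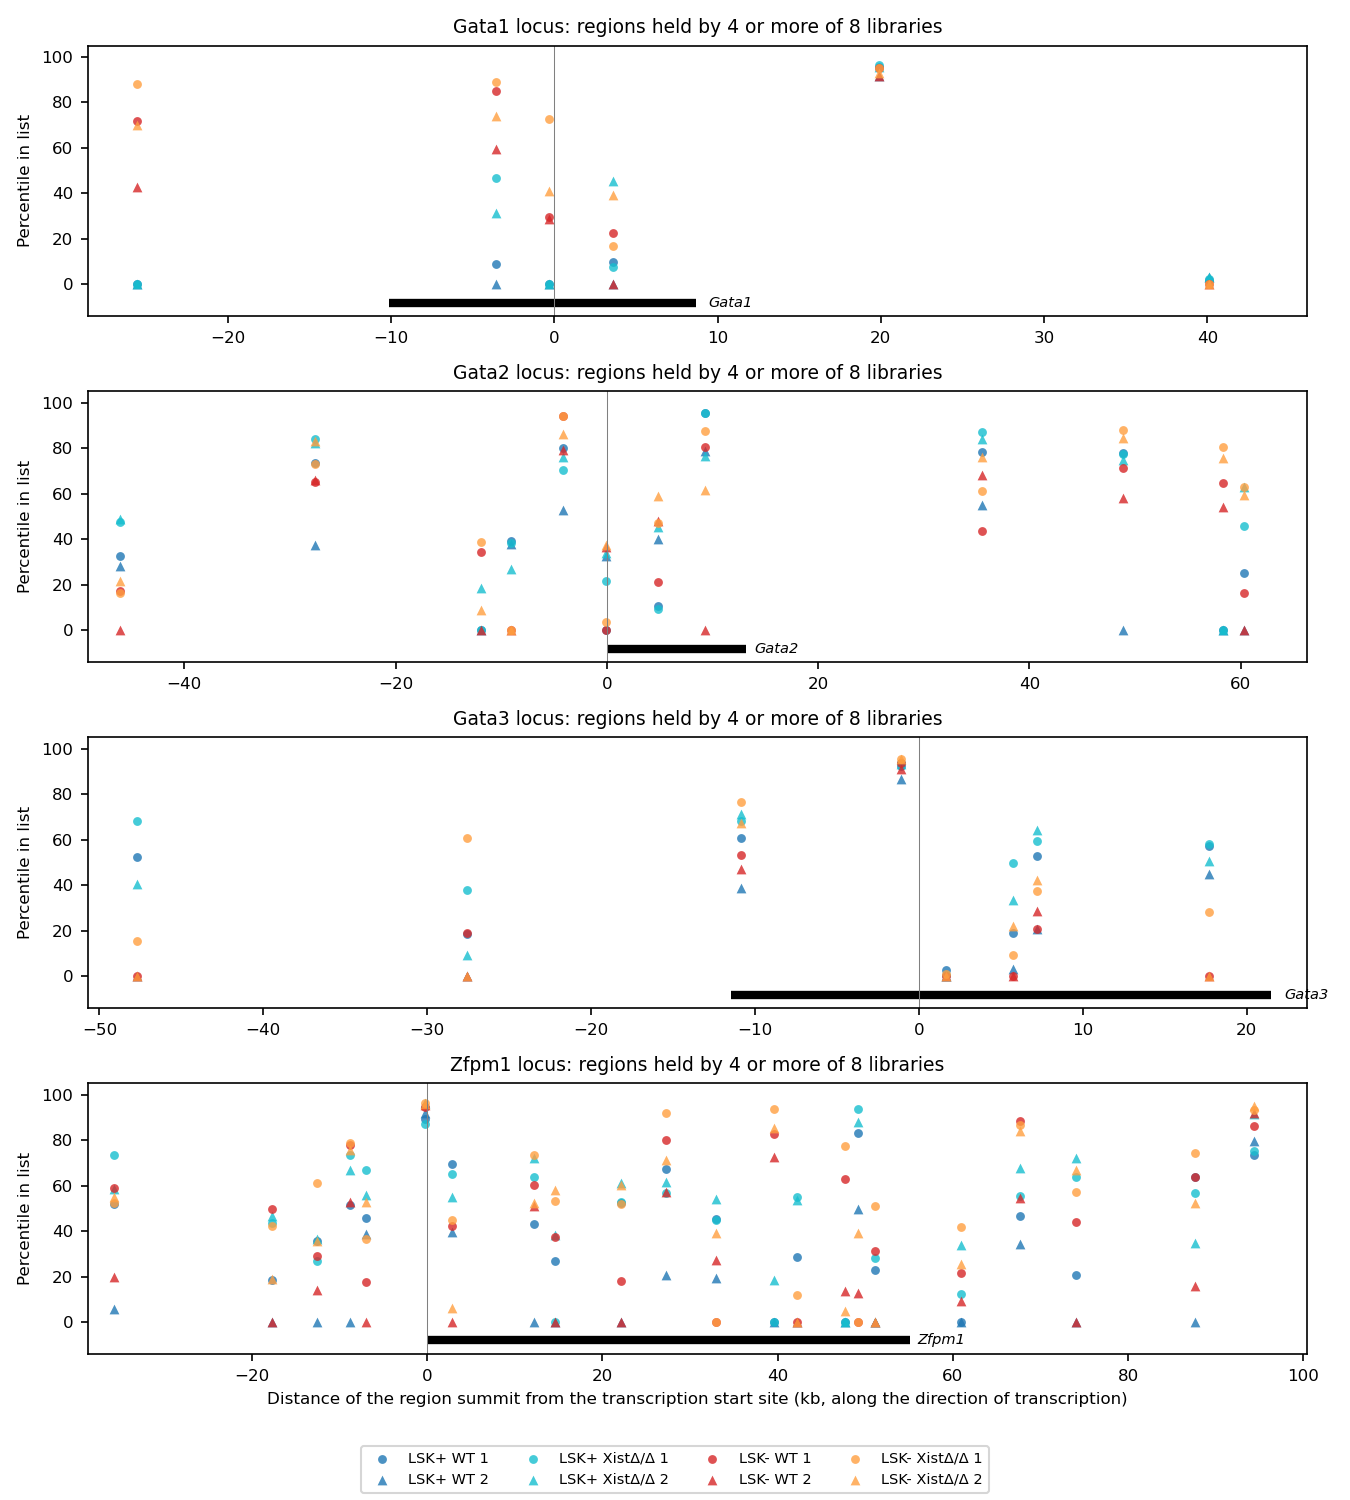
Percentile in the list (y axis) of the regions held by at least 4 of 8 libraries against the distance of their summit from the TSS in kb (x axis), for the 4 loci, with 1 point per library coloured by group. Black bars are the gene bodies, which for Gata1 and Gata3 reach upstream of the TSS used here because the annotation holds longer transcripts. The LSK- points lie above the LSK+ points upstream of Gata1 and at Zfpm1 +39.6 kb, and below them at Zfpm1 +49.2 kb.

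Gata3, the T cell factor that is also active in stem cells, lies on chromosome 2 (chr2:9857078-9890034, minus strand, ENSMUSG00000015619.10). Its main open region lay upstream of the TSS at 9878600, with its summit at -1.09 kb (chr2:9879062-9880007) and ranked between 86.8 and 95.5 in all 8 libraries. Because this peak reached to within 500 bp of the TSS in LSK+ XistΔ/Δ replicate 1 alone, the promoter value by the 500 bp rule was 93.6 there, 16.1 in LSK- XistΔ/Δ replicate 1 (from a small peak at the TSS) and 0 in the other libraries, and the rule gave no usable difference. Within 3 kb of the TSS the LSK- mean was 2.41 points higher (exact permutation p = 0.111). The Gata3 promoter region was thus among the strongest of the locus in both cell types.

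Inside Gata3 the intronic regions ranked higher on average in LSK+ cells. The region at +17.7 kb (chr2:9860818-9861297) ranked at 57.2, 44.9, 58.0 and 50.8 in the LSK+ libraries, and it was listed in 1 LSK- library, LSK- XistΔ/Δ replicate 1, at 28.4. This was a difference of -45.6 points with no overlap between the cell types, and fewer than 4 lists of equal length held the region. The intronic regions at +7.2 and +5.7 kb had LSK- minus LSK+ differences of -16.97 and -18.4 points, with overlap. Of the 8 Gata3 regions held by at least 4 libraries, 1 was higher in LSK+ and 0 in LSK- cells, and the median LSK- minus LSK+ difference was -8.74 points against 0.946 over all regions.

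Zfpm1, the gene of the cofactor FOG-1, lies on chromosome 8 (chr8:122282141-122337251, plus strand, ENSMUSG00000049577.15) and held the most regions. Its promoter (chr8:122281118-122282225) was among the strongest peaks of every library. The percentiles were 89.3 and 92.0 for LSK+ WT, 87.1 and 96.3 for LSK+ XistΔ/Δ, 94.5 and 95.4 for LSK- WT and 96.2 and 95.9 for LSK- XistΔ/Δ libraries. The LSK- mean was 4.29 points higher (exact permutation p = 0.167), with a pooled SD of 3.41 points.

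The contrast between the cell types lay in the introns of Zfpm1, within 10 kb of one another. At +39.6 kb (chr8:122321377-122322496) no peak was listed in LSK+ WT replicates 1 and 2 or in LSK+ XistΔ/Δ replicate 1, and the peak of LSK+ XistΔ/Δ replicate 2 stood at 18.7. In LSK- cells the same region stood at 82.6, 72.6, 93.5 and 85.3, a difference of 78.9 points, the largest of the 48 member regions held by at least 4 libraries. At +49.2 kb (chr8:122331070-122331626) the order was reversed, with 83.0, 49.5, 93.5 and 88.2 in the LSK+ libraries and 0, 12.9, 0 and 39.3 in the LSK- libraries, a difference of -65.5 points. Both regions were also called in lists of equal length, where neither had a peak in any library of the lower cell type.

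Other Zfpm1 regions followed with smaller differences. The intronic region at +47.7 kb was listed in LSK- libraries only, at 62.9, 13.9, 77.3 and 4.96, with replicate 1 far above replicate 2 in both genotypes. The region 2.89 kb into the gene ranked at 39.8 to 69.6 in LSK+ and at 0 to 44.8 in LSK- libraries, a difference of -34.1 points with overlap. In lists of equal length it stood at 35.41, 39.75, 3.785 and 4.365 in the LSK+ libraries and at 0 in the LSK- libraries, without overlap. The regions at -8.8, +27.3 and +67.7 kb had higher LSK- means by 23.4, 23.6 and 27.4 points, each with overlap in the full lists and without it in lists of equal length. At the end of the window the promoter of Zc3h18 (+94.4 kb) ranked at 73.6 to 95.1 in all libraries.

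Over the 4 loci, 48 of the 83 regions were held by at least 4 libraries, 13 by all 8 and 18 by a single library. All 4 LSK- libraries exceeded all 4 LSK+ libraries in 6 of the 48, which is 12.5%, where the same rule called 7.28% of all regions. The reverse held in 5 of the 48, or 10.4%, against 4.18% of all regions. For 6 of these 11 calls (54.5%) the region was held by exactly the 4 libraries of the higher cell type and so had to be called, which was so for 48.1% of the cell type calls over all regions. A called region stays separated when 1 library is left out, but one held by exactly 4 libraries can fall below the limit of 4. Leaving out 1 library moved the counts, to 2 regions higher in LSK- cells without LSK- XistΔ/Δ replicate 1 (5.13%, against 3.59% of all regions) or replicate 2 (4.65%, against 3.53%). It left 3 regions higher in LSK+ cells without LSK+ WT replicate 1 (7.14%, against 3.49%), LSK+ XistΔ/Δ replicate 1 (7.14%, against 3.52%) or LSK+ XistΔ/Δ replicate 2 (6.98%, against 3.53%), and 10 without LSK+ WT replicate 2 (21.7%, against 15.1%). In lists of equal length 8 of 23 regions (34.8%, background 10.9%) were higher in LSK- and 3 (13.0%, background 13.1%) in LSK+ cells. Of these, Gata1 -3.5 and -25, Gata2 +58.4 and Zfpm1 +39.6 kb (LSK-) and Zfpm1 +2.89 and +49.2 kb (LSK+) also had to be called. They were held by exactly the 4 libraries of the higher cell type, and the share of such calls over all regions was not counted for these lists. Counting a library only where its peaks covered at least 50% of the merged region left 1 region of 33 higher in LSK- (3.03%, background 2.78%) and 4 higher in LSK+ cells (12.1%, background 3.51%).

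By locus, 3 of 6 Gata1 regions were higher in LSK- and 1 in LSK+ cells, where 5.27% and 2.2% of the X-linked regions were. The Gata1 promoter, -25 and +40.1 kb regions were held by exactly the 4 libraries of 1 cell type and had to be called. Only the call at -3.5 kb was free, and it was not made when peaks were ranked by fold enrichment. Of the Gata1 regions 3 of 6 (50%) were listed in both cell types, against 96.6% of the X-linked regions, so the shares are not alike. The Gata2 locus had 1 and 2 of 12, Gata3 had 0 and 1 of 8, and Zfpm1 had 2 and 1 of 22. Of the 11 called regions, 1 had its summit within 500 bp of an annotated TSS (the Gata1 promoter), 1 lay 798 bp from the TSS of Eras (Gata1 +40.1 kb), and the other 9 lay over 3 kb from any TSS of the basic annotation. Counted from the TSS of the gene of its own locus, 42 of the 48 regions lay over 3 kb away. So did 5 of the 6 regions higher in LSK- and 5 of the 5 higher in LSK+ cells. A distal position was thus not particular to the called regions, and the share over all regions was not counted. The difference between cell types was estimated in WT and in XistΔ/Δ libraries separately, which share no library. It had the same sign in 40 of the 48 regions (83.3%), with LSK- higher in 24 and LSK+ higher in 16, and in 73.1% of all regions. Among the regions listed in both cell types, whose sign was not fixed by absence from one of them, it was the same in 34 of 42 (81.0%) and in 71.5% of all such regions.

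**Figure D3:**
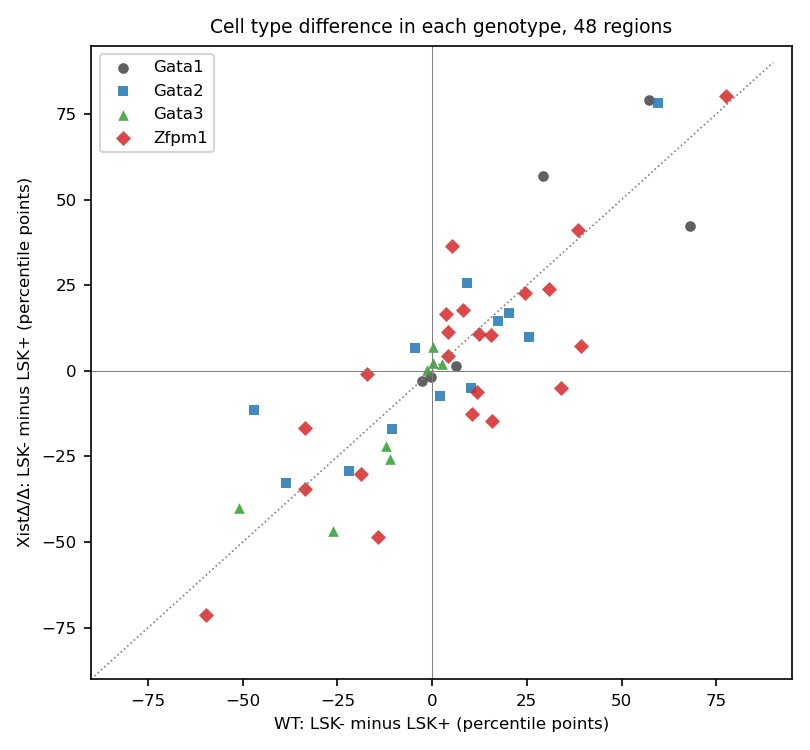
Difference of the mean percentile between LSK- and LSK+ cells in WT mice (x axis) and in XistΔ/Δ mice (y axis), with 1 point for each of the 48 regions and a dotted line where both are equal. In 40 regions both differences have the same sign, and Zfpm1 +39.6 kb (77.6 and 80.1 points) and Zfpm1 +49.2 kb (-59.8 and -71.2 points) are the extremes.

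The question of whether Xist loss changed these loci was complicated by list length. In LSK+ and in LSK- cells both XistΔ/Δ libraries exceeded both WT libraries in 10 of the 48 regions (20.8%), where the rule called 13.9% of all regions, and the reverse held in 0 regions, where it called 0.00993%. Without LSK- WT replicate 1 the count was 18 of 41 (43.9%, against 31.2% of all regions). The loci contributed unequally, with 4 regions each at Gata3 and Zfpm1, 2 at Gata2 and 0 at Gata1. The median XistΔ/Δ minus WT difference was 17.1 points over the 48 regions and 12.7 over all regions. In lists of equal length the count was 0 of 23 in each direction, where the rule called 1.12% of all regions each way.

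The values of the called regions show how they lay. The intergenic region 74.0 kb downstream of the Zfpm1 TSS had the largest difference, at 20.6 and 0 (WT) against 64.0 and 72.2 (XistΔ/Δ) for LSK+ cells and 44.1 and 0 (WT) against 57.1 and 67.0 (XistΔ/Δ) for LSK- cells. The intronic region at Zfpm1 +22.1 kb and the region at Gata2 +60.3 kb were likewise absent from both WT replicate 2 libraries. The Gata3 upstream region was called on differences of 3.65 points in LSK+ and 3.10 in LSK- cells, below the shift of all regions. None of the 10 was called in lists of equal length.

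Gata1 is the X-linked member, and none of its 6 regions was higher in XistΔ/Δ in both cell types, where 26.2% of X-linked regions were and 0.0733% were higher in WT. For 3 of the 6 (the promoter, -25 and +40.1 kb) no peak was listed in either genotype of 1 cell type, so the rule could not call them. The other 3 were not called either, where 27.2% of the 1318 X-linked regions listed in both cell types were. At -3.5 kb the XistΔ/Δ minus WT difference was 34.7 points in LSK+ and 9.08 in LSK- cells (21.9 on average, exact permutation p = 0.111), and at the promoter it was 0 and 27.8 points (13.9 on average, exact permutation p = 0.333). In lists of equal length the difference at -3.5 kb was -0.498 points. At the Zfpm1 promoter the genotype difference was 1.08 points (exact permutation p = 0.722), and at the Gata2 promoters 13.3 points (exact permutation p = 0.278).

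**Figure D4:**
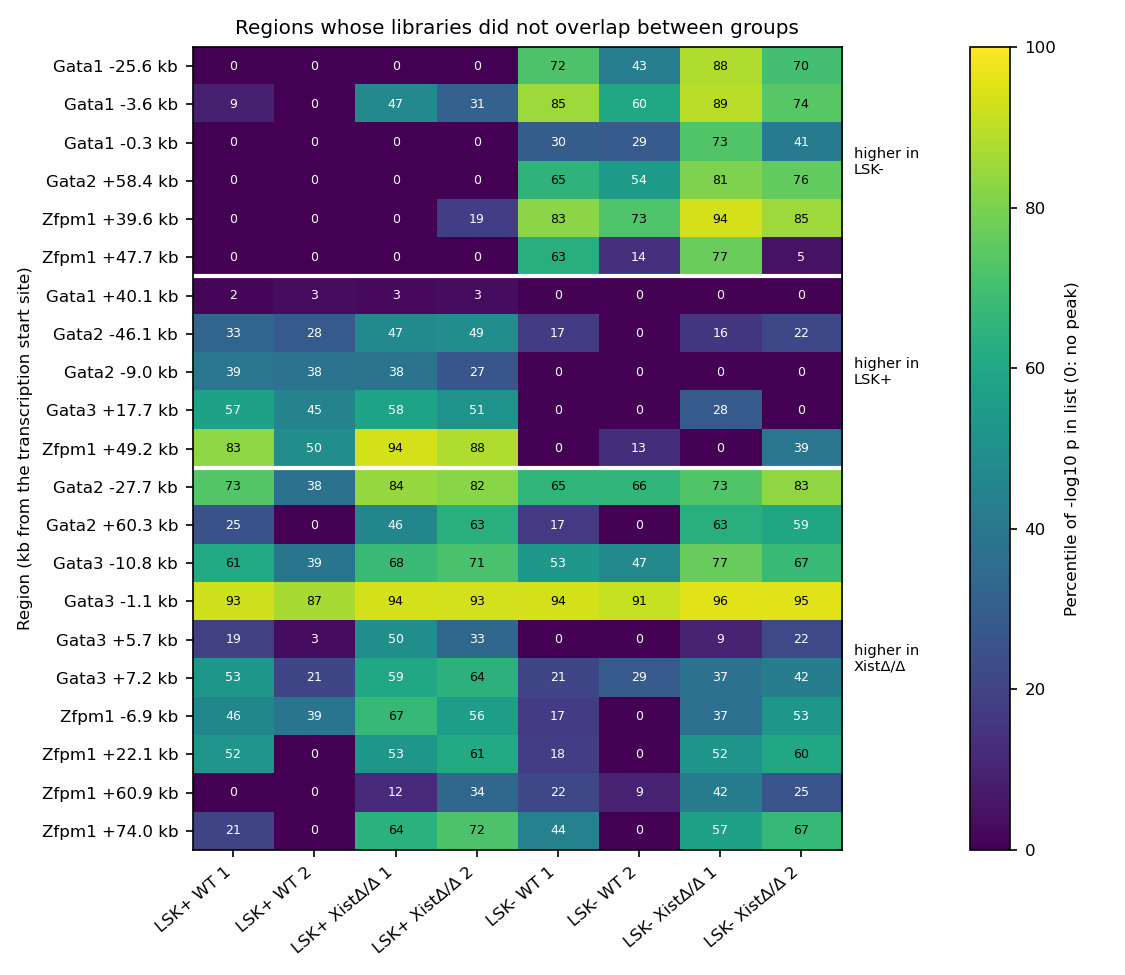
Percentile in the list (colour and number, 0 where no peak is listed) of the 21 regions (rows, named by kb from the TSS) whose libraries did not overlap between cell types or between genotypes, in the 8 libraries (columns). The upper 6 are higher in LSK-, the middle 5 in LSK+ and the lower 10 in XistΔ/Δ cells, and WT replicate 2 libraries have the lowest or equal lowest value of their cell type in most of the lower 10.

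The sequence at the summits was described by the direction of the cell type difference, with no test. Within the 151 bases centred on the summit, 16 of the 48 member regions (33.3%) held a GATA hexamer on either strand, and 22.8% of all regions did. Of the 6 member regions higher in LSK- cells 5 held one (the exception was the Gata1 promoter), and of the 5 higher in LSK+ cells 0 did. Over the whole series the shares were 72.3% of the 4403 regions higher in LSK- and 11.4% of the 2526 higher in LSK+ cells. Matches to the ETS sequences AGGAAG or CGGAAG were in 1 of the 6 and in 3 of the 5 member regions, and in 27.1% and 53.3% of the corresponding regions of the series. ETS matches were in 43.0% of all regions.

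The loci differed among themselves in these matches. GATA hexamers were in 3 of 6 Gata1, 5 of 12 Gata2 and 8 of 22 Zfpm1 regions, and in 0 of 8 Gata3 regions. The RUNX sequence TGTGGT was in 10 of the 48 regions (20.8%) and in 21.3% of all regions. An E-box CANNTG with 4 to 14 bases before a GATA hexamer was in 3 member regions, Gata2 +9.5, Gata2 +60.3 and Gata1 -3.5 kb (6.25%), and in 2.29% of all regions. A match describes these letters only and is no evidence of binding.

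**Figure D5:**
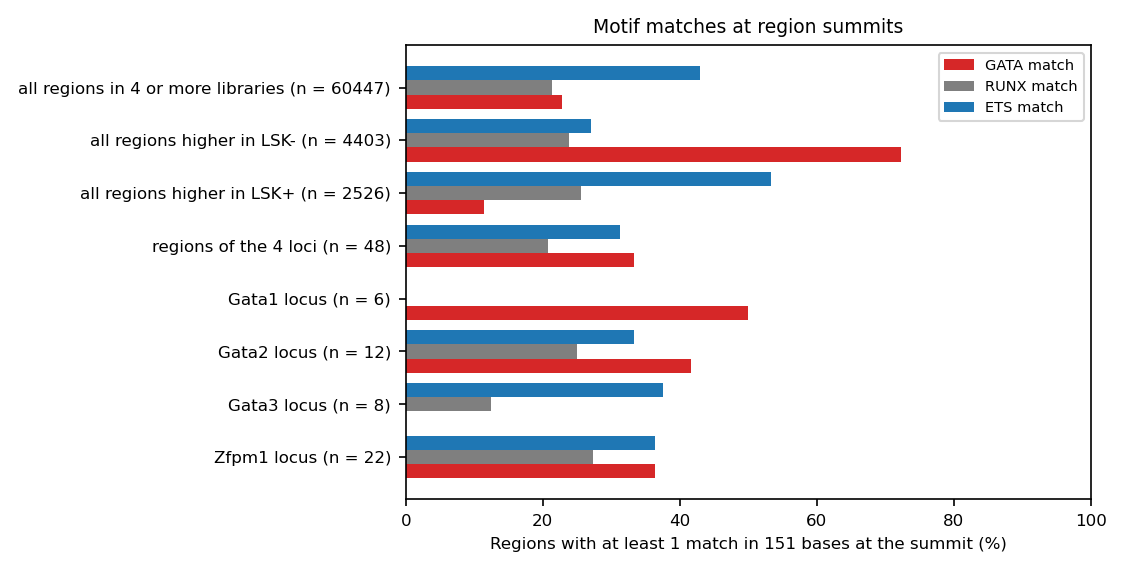
Share of regions (x axis, %) with at least 1 GATA, RUNX or ETS match, on either strand, in the 151 bases centred on the summit, for all regions held by at least 4 libraries, for those higher in either cell type and for the members (rows, number of regions in brackets). The GATA bar is at 72.3% in regions higher in LSK- and at 11.4% in those higher in LSK+ cells.

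Genes that act with the GATA factors were compared by their promoters. All 8 genes of GATA complex partners (Tal1, Lmo2, Ldb1, Lyl1, Tcf3, Runx1, Cbfa2t3 and Gfi1b) had a promoter peak in at least 4 libraries. None was higher in either cell type, where 1.63% of protein-coding promoters were higher in LSK- and 2.08% in LSK+ cells. Lmo2, which encodes the adaptor of the TAL1 and GATA complex, was the 1 called higher in XistΔ/Δ (68.2 and 70.1 for LSK+ WT, 77.6 and 83.6 for LSK+ XistΔ/Δ, 65.9 and 75.7 for LSK- WT and 88.5 and 86.6 for LSK- XistΔ/Δ libraries). The same rule called 19.4% of protein-coding promoters higher in XistΔ/Δ and 0.0298% higher in WT.

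Among the erythroid and megakaryocytic targets of GATA factors, 6 of 9 genes had a promoter peak in at least 4 libraries, and 1 of them was higher in LSK- and 1 in LSK+ cells. Klf1, the erythroid Krüppel-like factor, had no peak in LSK+ cells and ranked at 69.4, 43.5, 86.3 and 30.6 in the LSK- libraries. Held by exactly these 4 libraries, it had to be called. Gp9, which encodes a platelet glycoprotein, was higher in LSK+ cells, at 40.2 to 85.1 in LSK+ and 0 to 25.5 in LSK- libraries. Nfe2 and Itga2b were called higher in XistΔ/Δ, where 19.4% of protein-coding promoters were. The promoters of these gene lists were not compared in lists of equal length.

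Neither the granulocyte and monocyte factors nor the other GATA and FOG genes had a promoter called between cell types. Of the former, 4 of 5 promoters were in at least 4 libraries, and Spi1 and Gfi1 were called higher in XistΔ/Δ. Among Gata4, Gata5, Gata6 and Zfpm2, the family members of other tissues, 3 of 4 promoters were in at least 4 libraries, at percentiles from 0 to 60.04, and Gata6 was called higher in XistΔ/Δ. Beside the calls of Spi1, Gfi1 and Gata6 stands the same share of 19.4% of protein-coding promoters. Of the promoters of 5 mast cell and basophil genes, those of Ms4a2, Tpsb2 and Cma1 had no peak in any library. Cpa3 (0 to 68.9) and Mcpt8 (0 to 50.8) had one in 6 and 7 libraries and did not separate the cell types. Of 7 LSK- markers 4 had a promoter peak in at least 4 libraries, and 1 of these, Klf1, was called higher in LSK- cells, where 1.63% of protein-coding promoters were. Of 7 LSK+ markers 6 could be compared, and 0 were called higher in LSK+ cells, where 2.08% of promoters were. The part of the cell makeup of the sorts in the differences at the GATA loci was not tested.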

How the data were processed

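ATAC-seq peak lists of 8 libraries were used, 1 per library, in 4 groups of 2 read from the titles. The authors trimmed reads with Trim Galore, aligned them to mm10 with Bowtie2 2.3.5.1, removed mitochondrial reads and reads with mapping quality under 30 with SAMtools 1.10 and called peaks in each library with MACS2 2.2.7.1 at q 0.01 on paired-end fragments. No control library, duplicate removal or Tn5 shift was stated. Per the file format, the deposited columns are a score, the fold enrichment (a ratio), the -log10 p-value and the -log10 q-value of each peak. Read counts per peak were not analysed here, so differences are in rank, not in accessibility itself.

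Peaks on chromosomes 1 to 19 and X were ranked by -log10 p within each list (ties share their mean rank) and merged across lists where they overlapped by at least 1 bp. Regions held by at least 4 of 8 libraries were compared. A region was called when the libraries of both groups did not overlap (within each cell type for genotype). Single promoters and elements (within 500 bp of a TSS, or 300 bp of the named position) were compared by two-sided exact permutation of the labels within the other factor, with 36 assignments and a smallest p of 0.0556, so no test could reach 0.05. Benjamini-Hochberg adjustment covered 8 promoter and 16 element tests. The paper calls the replicates biological but does not state whether each came from a separate mouse or a pool. The p-values measure only the spread between these libraries. Deviations from the group means correlated between same-numbered libraries in all 6 pairs of groups (0.161 to 0.464). Each replicate number also had its own run code in the file names, so same-numbered libraries may be paired. The main test with 36 assignments did not use this pairing. A replicate block (16 assignments, smallest exact permutation p 0.125), which did, was the alternative.

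Genes, exons and TSSs came from GENCODE M21 (basic set; exon overlap of printed sequences from the comprehensive set), and sequences from the RefSeq GRCm38.p6 assembly, which mm10 names. Distances run from the 5′-most TSS of the basic set. Summit fragments and background pileups were solved from fold and p, to a tolerance of 0.1% in at least 97.9% of peaks of each list. Call rules and this step were tested on simulated data. Python 3.11.15, pandas 2.3.3, scipy 1.17.1 and pysam 0.24.0 were used. Regions named in the text include all promoters and elements and every region called between cell types. The 6 of highest median percentile per locus are named except Gata2 -27.7, +35.5 and +48.9, Gata3 -10.8 and -27.6 and Zfpm1 +12.2 kb. Of the regions called between genotypes, Gata2 -27.7, Gata3 -10.8 and Zfpm1 -6.9 and +60.9 kb are in figures only. Among those left out, Gata2 -27.7 and +35.5 and Gata3 -10.8 kb were held by all 8 libraries. The loci, elements and gene lists were chosen with earlier results of these data known. Some genes of the lists are not reported here and were left out of their counts.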

Additional observations from a re-analysis of the deposited data

How the results depend on the processing

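With 2 libraries per group no test could pass 0.05, so the alternatives bear on directions and counts. They were equal list length, ranking by fold enrichment, a -log10 q of at least 5, each library left out, the replicate block, a promoter reach of 3 kb, all regions held by at least 1 library, and peaks covering at least 50% of the region. The direction turned in 5 of 104 alternatives for the promoters and in 10 of 144 for the elements with a peak in any library. Some of these could not turn. The replicate block, counted once for each of the 8 promoter and 12 element results, keeps the difference itself. The reach of 3 kb left the values of Gata1, Gata2 and Zfpm1 as they were. The cell type differences at the Gata1 promoter and -25 kb, with no LSK+ peak, could turn in no leave-out. Ranking by fold, equal list length and the stricter q could not turn them either, since they add no peak. The replicate block could neither make nor end a call at 0.05. Its exact permutation p for the cell type difference was at its minimum of 0.125 at the Gata1 promoter (43.0 points), the Gata2 promoter (14.4 points) and the Gata1 -25 and -3.5 kb and Gata2 -77, -3.9 and +9.5 kb elements.

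Equal list length turned the genotype difference to -15.1 points at the Gata2 promoter, -3.54 at the Zfpm1 promoter, -12.3 at Gata2 -3.9 kb, -0.653 at Gata2 +9.5 kb and -0.498 at Gata1 -3.5 kb. It gave 3 regions higher in LSK+ and 0 higher in XistΔ/Δ cells, of 23 regions left. Ranking by fold turned the genotype difference at Gata2 -3.9 kb to -1.06 and the cell type difference at Gata1 +3.5 kb to -8.75 points. At Gata1 -3.5 kb it left a cell type difference of 39.6 points, but the cell types overlapped and the region was not called. The reach of 3 kb turned the Gata3 promoter's cell type difference to 2.41 points.

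Peaks covering 50% of the region gave 1 region higher in LSK- and 6 higher in XistΔ/Δ cells. Leaving out 1 library left 39 to 46 regions to compare. It gave 2 to 8 regions higher in LSK- cells (4.65% to 18.6%, against 3.53% to 11.8% of all regions; 2 without either LSK- XistΔ/Δ library), 3 to 10 higher in LSK+ cells (6.98% to 21.7%, against 3.49% to 15.1%; 3 without LSK+ WT replicate 1 or either LSK+ XistΔ/Δ library, 10 without LSK+ WT replicate 2) and 10 to 18 higher in XistΔ/Δ cells (23.3% to 43.9%, against 15.3% to 31.2%; 18 without LSK- WT replicate 1). Regions held by exactly 4 libraries drop out when 1 of those is left out. A called region that stays in cannot lose its separation, so counts fell only by such regions dropping out. Leave-outs put the cell type difference of the Gata3 promoter at -42.8 to 4.02 points and that of Gata1 +3.5 kb at -5.54 to 13.4, with -1.78 without LSK- WT replicate 1 and -1.67 without LSK- XistΔ/Δ replicate 2. They put the genotype difference of the Zfpm1 promoter at -1.22 to 3.38, of Gata2 -3.9 kb at -1.58 to 12.1 and of Gata2 +9.5 kb at -3.44 to 36.8 points. Apart from the counts that fell in leave-outs, the cause of these changes was not tested, other than that equal lists remove the difference in list length by construction. The shallowest list, of LSK+ WT replicate 2, listed peaks from 5 summit fragments and the deepest from 13, so an absent peak is not a closed region.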
